A study of Mus musculus with 36 samples.

Results

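The protein part of the cytosolic ribosome was followed in mouse epididymal white adipose tissue through 82 genes, 50 of the large subunit series (names starting Rpl) and 32 of the small subunit series (names starting Rps). The genes were taken by name from the array: every probe that was not a control and whose gene name was Rpl or Rps followed by a number, or Rplp0, Rplp1, Rplp2 or Rpsa, without the Rps6 kinases and binding proteins. The 82 genes had 136 of the 41174 probes on the array, and the brightest probe stood for each gene. After a filter on signal, 81 of them were among the 16503 genes tested. The gene that did not pass, Rpl3l, a paralog of Rpl3 known from striated muscle, was well above background on 4 of 36 arrays and is given no level.

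The tissue came from 36 adult male C57BL/6J mice, 1 array per animal and 12 animals per group. All mice first had free access for 3 weeks to a high-fat diet (30 energy% fat). The t=0 group was killed at that point, the HF-AL group went on eating freely for 12 weeks, and the HF-DR group was given the same diet, with added vitamins and minerals, restricted to 70 energy% for 12 weeks. HF-DR against HF-AL therefore addresses food restriction at the same age and on the same base diet. Restriction and the added vitamins and minerals cannot be told apart in it. HF-AL against t=0 addresses 12 more weeks of free feeding, and in HF-DR against t=0 restriction and the 12 weeks cannot be told apart. Each animal's RNA was labelled with Cy5 and hybridised against a Cy3 pool of all samples, so that every level below is a log2 ratio to that pool, with no dye swap.

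The ribosome reads mRNA and joins amino acids. Its small subunit decodes, its large subunit forms the peptide bond, and a flexible stalk of P proteins on the large subunit recruits the translation factors. In mammals the mRNAs of nearly all ribosomal proteins begin with a stretch of pyrimidines, the terminal oligopyrimidine (TOP) motif, through which mTORC1 and LARP1 regulate their translation and stability in response to nutrients. In adipose tissue several of these genes, Rplp0, Rps18 and Rpl13a among them, are used as reference genes for PCR, on the premise that their mRNA is steady.

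Promoter windows are shown for members whose values carry the results below, a stalk protein, a large and a small subunit protein that were lower in HF-DR, a large subunit protein that was higher, and the paralog with the clearest rise. The bases are those of RefSeq on GRCm38.p6, 40 before and 20 after the annotated start of transcription, written 5′ to 3′ on the gene's strand, with the longest run of C and T within 20 bases on either side of the start in capitals.
Rplp2: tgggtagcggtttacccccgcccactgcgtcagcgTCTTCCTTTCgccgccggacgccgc
Rpl27a: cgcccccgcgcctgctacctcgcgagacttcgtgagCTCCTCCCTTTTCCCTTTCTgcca
Rps12: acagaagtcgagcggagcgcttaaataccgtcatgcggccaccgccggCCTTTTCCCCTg
Rpl4: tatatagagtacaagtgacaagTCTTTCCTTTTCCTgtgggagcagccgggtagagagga
Rpl7l1: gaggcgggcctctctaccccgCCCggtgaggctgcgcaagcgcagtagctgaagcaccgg
The windows lie at chr7:141447611-141447670 (plus strand) for Rplp2, chr7:109519155-109519214 (plus) for Rpl27a, chr10:23787190-23787249 (minus) for Rps12, chr9:64173347-64173406 (plus) for Rpl4 and chr17:46782637-46782696 (minus) for Rpl7l1. The runs are 10, 20, 11, 14 and 3 bases long in that order. A run of at least 8 pyrimidines was present in the 40 bases around a start in 30 of the 61 members with a listed promoter (49.2%), against 4965 of 27025 genes (18.4%). The letters CGGAAG, the core bound by ETS factors, occurred on either strand of the 300-base promoter in 41 members (67.2%) and in 5075 of all genes (18.8%). The runs of Rplp2 and Rpl27a span the annotated start, whereas that of Rpl4 ends before it and that of Rps12 begins after it. Rpl7l1 has no run of that length. Whether the runs go with the differences between groups was not tested. A match is a description of the letters and shows no binding.

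Members lay at the top of the brightness scale: 73 of 81 were in the brightest 10% of all genes tested, and none was saturated. Between 44.6% and 86.3% of probes were well above background per array. Processed copies of ribosomal protein genes are common in the mouse genome, and a probe may also bind RNA of such a copy. The brightest Rpl10 probe is one such case, since the array design places it on chromosome 13 (mm8, 62394783 to 62394842) whereas Rpl10 is X-linked. Adipocyte markers (Adipoq, Plin1, Fabp4 and 7 others, 10 of 10 measured) were above background. The 12 animals of a group were separate mice by the labels, no 2 arrays held identical values, and the highest correlation between arrays was 0.995.

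Arrays with RNA of the male tract stood apart and touch every result on the family. Seminal vesicle genes (Svs2, Svs3a, Svs4, Svs5, Svs6 and Pate4; Defb20, Lcn5, Crisp1 and Adam7 of the same list were not above background) had a mean log2 ratio to the pool of 5.84 on HF-DR array 8, 5.37 on HF-DR array 9, -0.38 on HF-DR array 7 and -2.81 on t=0 array 6, and lay between -5.77 and -3.96 on all other arrays. Testis and sperm genes (Prm1, Prm2, Tnp1, Tnp2 and Tekt1; Odf1 was not above background) had means of 1.12, 2.46 and 1.76 on HF-AL arrays 5, 7 and 9 and -1.12 to -0.86 on the other HF-AL arrays. They had -0.47 to 0.16 on the 12 HF-DR arrays, all above those other HF-AL arrays, and -1.01 to -0.25 on the t=0 arrays. The median over the 81 members was 0.63 on HF-DR array 8, 0.41 on HF-DR array 9 and 0.23, 0.29 and 0.29 on HF-AL arrays 5, 7 and 9, the 5 highest values of the 36. The other HF-DR arrays lay at -0.19 to -0.05, the other HF-AL arrays at -0.01 to 0.10 and the t=0 arrays at -0.04 to 0.17. Results are therefore given on all arrays and without these 7; the part of the tract RNA in any single result was not tested beyond that.

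**Figure D1:**
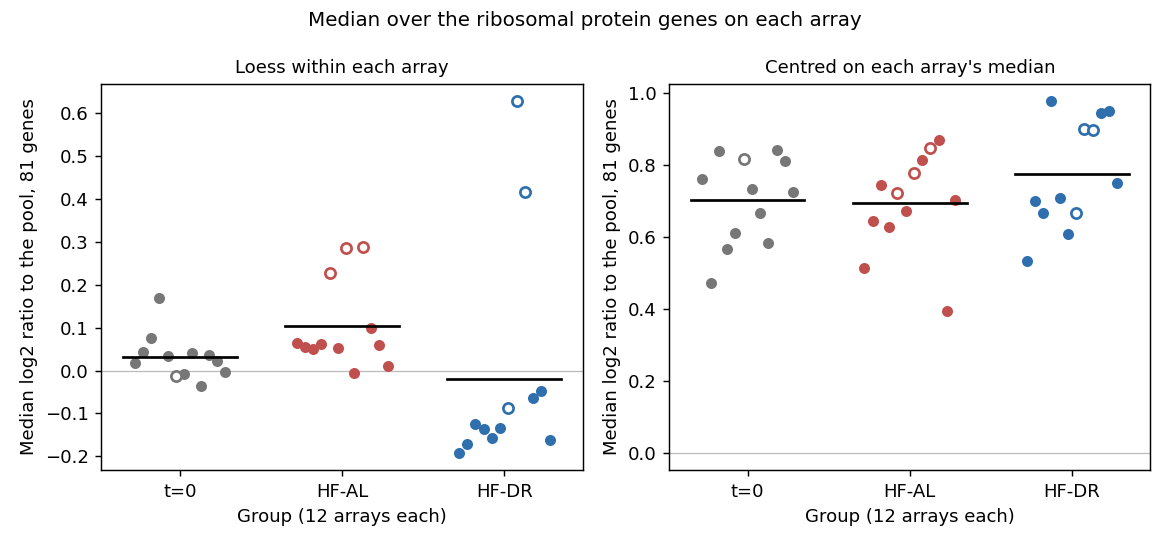
Median log2 ratio to the pool over the 81 ribosomal protein genes on each array, by group, after loess (left) and after centring each array on its own median (right); open circles are the 7 arrays with tract transcripts and black lines are group means. After loess the HF-DR arrays without tract RNA lie lowest, between -0.19 and -0.05, whereas after centring the 3 groups overlap and the HF-DR mean of 0.78 is the highest.

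In HF-DR against HF-AL, 38 of the 81 members (46.9%) passed an adjusted p of 0.05 after loess, 32 of them lower and 6 higher in HF-DR, while 64.7% of all 16503 genes passed, 28.8% higher and 35.9% lower (limma, Benjamini-Hochberg over all genes). The median absolute difference was 0.18 for the members against 0.25 for all genes on the log2 scale. The share of members that passed depended on the setting: it was 66.7% without the 7 tract arrays, where 66.8% of all genes passed, and 58% with slide as a fixed block, where 52.8% of all genes passed and the median absolute difference was 0.27 against 0.26. Arrays that were alone on their slide, among them the HF-DR tract arrays, do not enter the group difference with the slide block. The members' median difference was -0.11 after loess, with 62 of 81 below 0, against -0.04 for all genes, but it was 0.06 when arrays were centred on their median (26 higher, 9 lower, where 61.8% of all genes passed) and 0.14 in the authors' deposited log2 values (37 higher and 7 lower of 80 members, where 64.2% passed). The direction of the family as a whole therefore rested on the scaling. Without the 7 tract arrays it was -0.17 after loess (4 higher, 50 lower, where 66.8% of all genes passed) and 0.08 after centring (23 higher, 6 lower, where 62.1% passed). After loess 3 members differed by over 1.5-fold, whereas 2922 of all genes did (17.7%).

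Within the family the order of the members held better than their sign. Across the 81 members the differences after loess and after centring had a Spearman correlation of 0.93, a description over genes that share the same arrays. With the 4 paralogs (Rpl7l1, Rpl22l1, Rpl36al and Rps27l) and the 3 stalk proteins set apart, the 31 small subunit members had a median of -0.19 (0 higher and 16 lower) and the 43 large subunit members a median of -0.08 (3 higher and 13 lower) after loess. Of the paralogs 3 were higher and 1 lower. After centring the medians were 0.02 and 0.11, with 7 higher and 6 lower of the 31 small subunit members and 15 higher and 2 lower of the 43 large subunit members, where 28.1% of all genes were higher and 33.7% lower. The difference between the subunits was not tested.

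**Figure D2:**
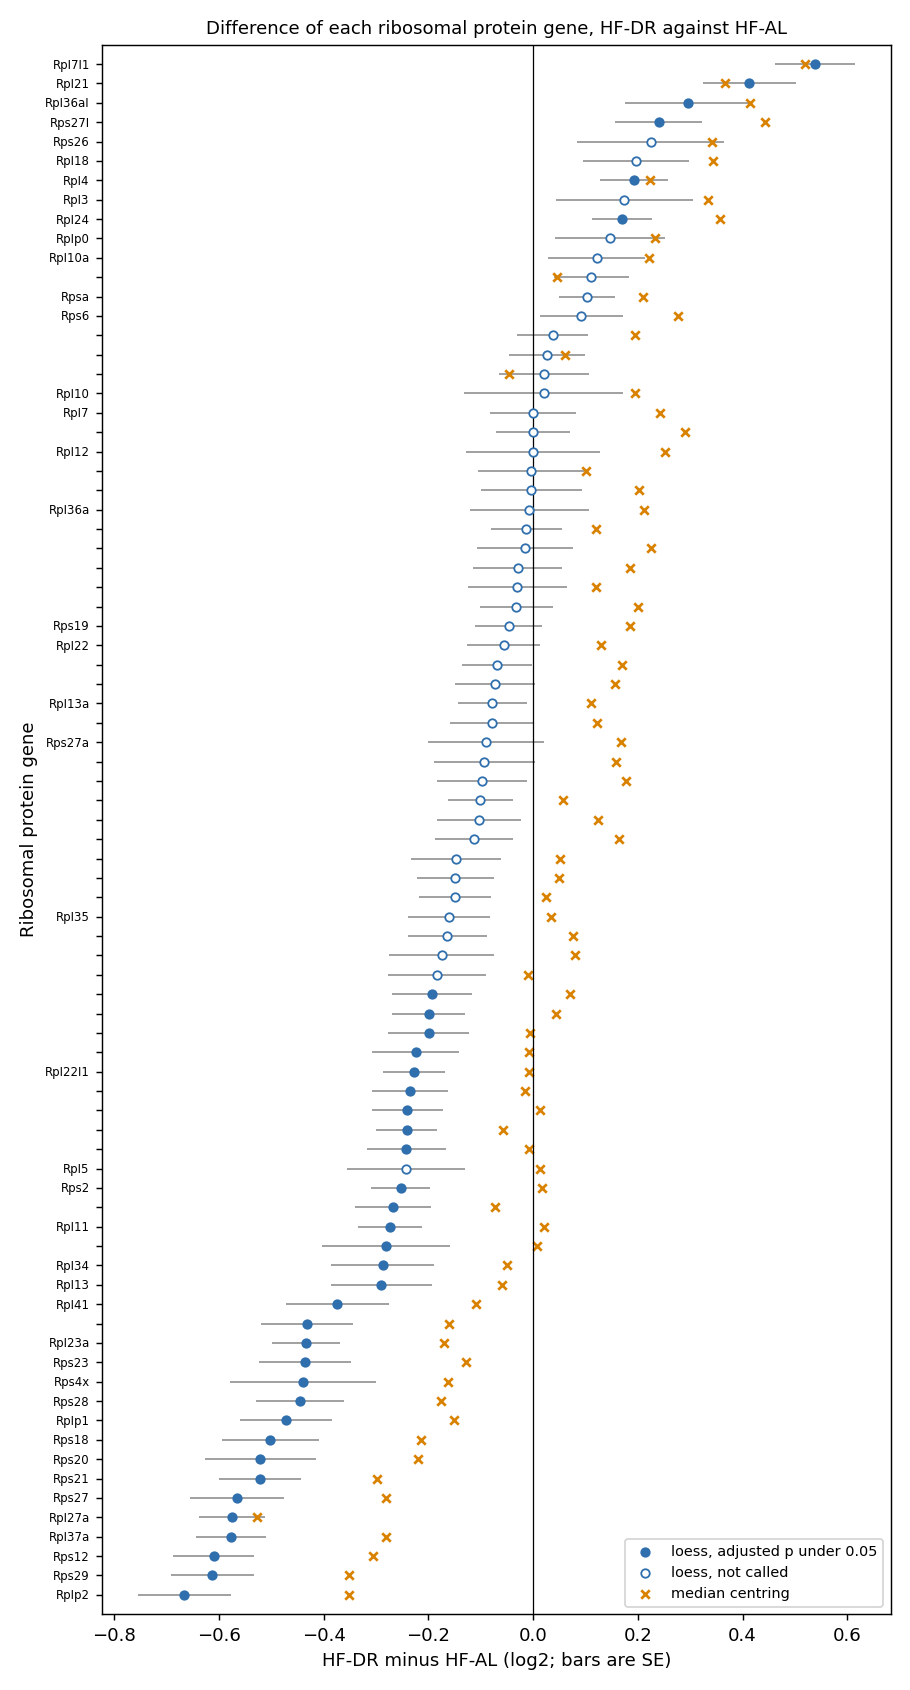
Difference HF-DR minus HF-AL (log2) of 80 of the 81 ribosomal protein genes, in order of size and with the genes discussed here labelled, with SE bars after loess (filled where adjusted p was under 0.05) and crosses for the same gene after centring each array on its median. The order is much the same under both scalings, but the crosses lie to the right, so that the family's median is -0.11 after loess and 0.06 after centring; Rplp2, Rps29, Rps12, Rpl37a and Rpl27a end the scale on the low side and Rpl7l1 on the high side.

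A subset of members differed the same way whatever the scaling. Rpl27a, Rpl37a, Rps12, Rps21 and Rps29 were called lower in HF-DR than in HF-AL in all 19 settings, and Rpl7l1 was called higher in all 19. Without regard to the test, 17 members were lower and 7 were higher in all 19. In single settings 39.9% (no filter on dim probes) to 67.9% of all genes passed. How many of all genes passed in all 19 was not counted, so that these numbers of members have no such share beside them. The 19 settings share arrays and are not independent. No member probe was saturated, so that leaving out saturated spots repeats the loess values. The replicate block and the fits of only the groups compared left the sizes of the differences nearly as they were. They are described by their place in the ribosome, stalk and subunits first and paralogs last.

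The stalk proteins did not move together. Rplp2 is 1 of the acidic P proteins that form the tip of the stalk (probe at chr7:141302601-141302660 of mm8, the build of the array files). Its log2 ratio to the pool was 0.21 at the lowest, 0.46 at the median and 0.88 at the highest in t=0, -0.05, 0.52 and 0.85 in HF-AL, and -0.51, -0.14 and 0.05 in HF-DR. All 12 HF-DR arrays lay below all t=0 arrays, and they overlapped HF-AL only at its lowest animal. Rplp2 fell by 0.67 on the log2 scale in HF-DR against HF-AL (SE 0.09, adjusted p = 3.53e-08 by limma, 1.59-fold lower), the largest fall after loess on all arrays. It had -0.61 without the tract arrays and -0.35 after centring (adjusted p = 0.019), where Rpl27a fell further (-0.67 and -0.53). Rplp2 missed the threshold in 1 of 19 settings, centring without the tract arrays (-0.22, adjusted p = 0.128). Its partner Rplp1 was lower by a log2 difference of -0.47 (adjusted p = 1.54e-05), and by -0.15 after centring, where it did not pass (adjusted p = 0.0737). Rplp0, the protein that anchors the stalk and a common reference gene, had medians of -0.10 in t=0, -0.20 in HF-AL and -0.13 in HF-DR, with a difference HF-DR minus HF-AL of 0.15 (SE 0.10, adjusted p = 0.219). The 2 highest HF-DR values of Rplp0, 1.00 and 0.81, were those of arrays 8 and 9, and without the tract arrays the difference was 0.03 (adjusted p = 0.48). After centring Rplp0 had 0.23 (adjusted p = 0.0193), and with the slide block -0.12 (adjusted p = 0.206), so that its call and direction depended on the setting. Rplp0 is read by 10 spots on each array, and the median SD between its spots was 0.07, against an SD between animals of 0.06 in t=0, 0.16 in HF-AL and 0.42 in HF-DR. Without the tract arrays the SD between animals was 0.07 in HF-AL and 0.09 in HF-DR.

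Among the small subunit proteins, Rps29, a small zinc-binding protein of the head of the subunit, had medians of 0.11 in t=0, 0.26 in HF-AL and -0.49 in HF-DR. Its HF-DR values ran from -0.69 to 0.16 and its HF-AL values from -0.13 to 0.44, so that the groups overlapped through the HF-DR tract arrays. Rps29 fell by 0.61 in HF-DR against HF-AL (SE 0.08, adjusted p = 2.14e-08), by 0.64 without the tract arrays and by 0.35 after centring. Rps12 (chr10:23474626-23474685 of mm8, reverse strand), which lies in the beak of the small subunit, had 0.22, 0.48 and 0.68 as its lowest, median and highest value in t=0, 0.27, 0.56 and 0.83 in HF-AL, and -0.41, -0.09 and 0.39 in HF-DR. The HF-DR arrays were the low ones, and the highest of them, array 9, was among the tract arrays. Rps12 fell by 0.61 (SE 0.08, adjusted p = 1.57e-08), and by 0.31 after centring. Rps21, whose 3 probes gave -0.52, -0.57 and -0.45, fell by 0.52 (SE 0.08, adjusted p = 4.35e-07).

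Of the other small subunit members named here, Rps27 was called lower in 18 of the 19 settings, Rps18 in 17 and Rps4x in 12. Their calls, like those of the rest, turned at least in part on the scaling. Rps18, used as a reference gene, had a difference of -0.50 (adjusted p = 1.27e-05) and -0.21 after centring (adjusted p = 0.0451), and missed the threshold in the authors' deposited log2 values (-0.14, adjusted p = 0.13). Rps27, a zinc finger protein, had -0.57 (adjusted p = 1.02e-06) and -0.28 after centring. Rps4x, the X-linked member of its pair in humans, had -0.44 (adjusted p = 0.00598) and -0.16 after centring (adjusted p = 0.264). Rps6, the substrate of the S6 kinases downstream of mTORC1, had medians of -0.15 in t=0, 0.01 in HF-AL and 0.02 in HF-DR, overlapping throughout, and a difference of 0.09 (adjusted p = 0.309) in HF-DR against HF-AL after loess. After centring it rose by 0.28 (adjusted p = 0.000517), and it had 0.33 in the authors' deposited log2 values (adjusted p = 0.000157) and -0.07 with the slide block (adjusted p = 0.499). Rps19, the gene most often mutated in human Diamond-Blackfan anaemia, had -0.05 (adjusted p = 0.539) after loess and 0.18 after centring (adjusted p = 0.0264). Rps27a, which is made as a fusion with ubiquitin, had -0.09 (adjusted p = 0.491) and 0.17 (adjusted p = 0.196). Rpsa, also known as the laminin receptor, had a difference of 0.10 (adjusted p = 0.0941) after loess and 0.21 after centring (adjusted p = 0.00224), and was called higher in 5 of the 19 settings. Rps2 had -0.25 after loess (adjusted p = 0.00018) and 0.02 after centring (adjusted p = 0.852).

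Of the large subunit proteins, Rpl27a (chr7:109313419-109313478 of mm8) kept the size of its difference under centring. Its values were 0.04, 0.18 and 0.52 (lowest, median and highest) in t=0, -0.07, 0.20 and 0.37 in HF-AL, and -0.62, -0.46 and 0.02 in HF-DR. The 3 highest HF-DR values were the 3 tract arrays, and the other 9 lay below all HF-AL and t=0 arrays. Rpl27a fell by 0.58 (SE 0.06, adjusted p = 5.46e-10, 1.49-fold lower), by 0.67 without the tract arrays and by 0.53 after centring. A second, dim Rpl27a probe gave 0.15 (adjusted p = 0.0172 over all probes), the opposite direction. Rpl37a, a zinc-ribbon protein (chr1:72646770-72646829 of mm8), fell by 0.58 as well (SE 0.07, adjusted p = 2.15e-09), with HF-AL values of 0.19 to 0.57 and HF-DR values of -0.36 to 0.42; without the tract arrays it fell by 0.61 and its groups did not overlap.

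Rpl5 and Rpl11, which carry 5S rRNA into the large subunit and, unassembled, bind the p53 inhibitor MDM2, had differences of -0.24 (adjusted p = 0.0575) and -0.27 (adjusted p = 0.000201) after loess. Without the tract arrays Rpl5 had -0.24 as well and passed (adjusted p = 0.00524). After centring both were near 0, at 0.01 and 0.02, and neither passed. A dim second Rpl11 probe gave 0.17, again the opposite direction. Rpl41, the smallest ribosomal protein, had -0.37 (adjusted p = 0.00111), and -0.11 after centring (adjusted p = 0.254). Rpl13a, which also acts in interferon-dependent silencing of translation, had -0.08 (adjusted p = 0.303), and 0.11 after centring (adjusted p = 0.141). Rpl3, which lines the peptidyl transferase centre, had 0.17 (adjusted p = 0.249) over 9 t=0, 10 HF-AL and 12 HF-DR arrays, its spot being left out as an outlier on the others. Rpl3 had 0.33 after centring (adjusted p = 0.0141), 0.01 without the tract arrays (adjusted p = 0.948) and -0.14 with the slide block (adjusted p = 0.382). Rpl10, which joins the subunit late in its maturation in yeast, had 0.02 (adjusted p = 0.918), and -0.16 without the tract arrays (adjusted p = 0.0302).

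After loess Rpl4, Rpl21 and Rpl24 were the 3 large subunit members called higher, against 15 after centring. Rpl4, whose loop lines the exit tunnel of the nascent chain (chr9:63972936-63972995 of mm8), had lowest, median and highest values of -0.27, -0.15 and 0.00 in t=0, -0.22, -0.08 and 0.13 in HF-AL, and -0.12, 0.08 and 0.69 in HF-DR. The groups overlapped and the 2 highest values belonged to HF-DR arrays 8 and 9. Rpl4 rose by 0.19 in HF-DR against HF-AL (SE 0.06, adjusted p = 0.00949), by 0.14 without the tract arrays and by 0.22 after centring, and was above 0 in all 19 settings. With slide as a fixed block it had 0.01 (adjusted p = 0.915), the weakest of those settings. Rpl24, at the interface with the small subunit, rose by 0.17 (SE 0.06, adjusted p = 0.00965), by 0.21 without the tract arrays and by 0.36 after centring, and had 0.05 with the slide block (adjusted p = 0.615). Rpl21 rose by 0.41 (SE 0.09, adjusted p = 0.000109), with medians of 0.07 in t=0, -0.15 in HF-AL and 0.17 in HF-DR. With the slide block Rpl21 had 0.21 (adjusted p = 0.162). The Rpl21 probe used was designed on a predicted transcript, and the other Rpl21 probe gave -0.01 (adjusted p = 0.894).

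**Figure D3:**
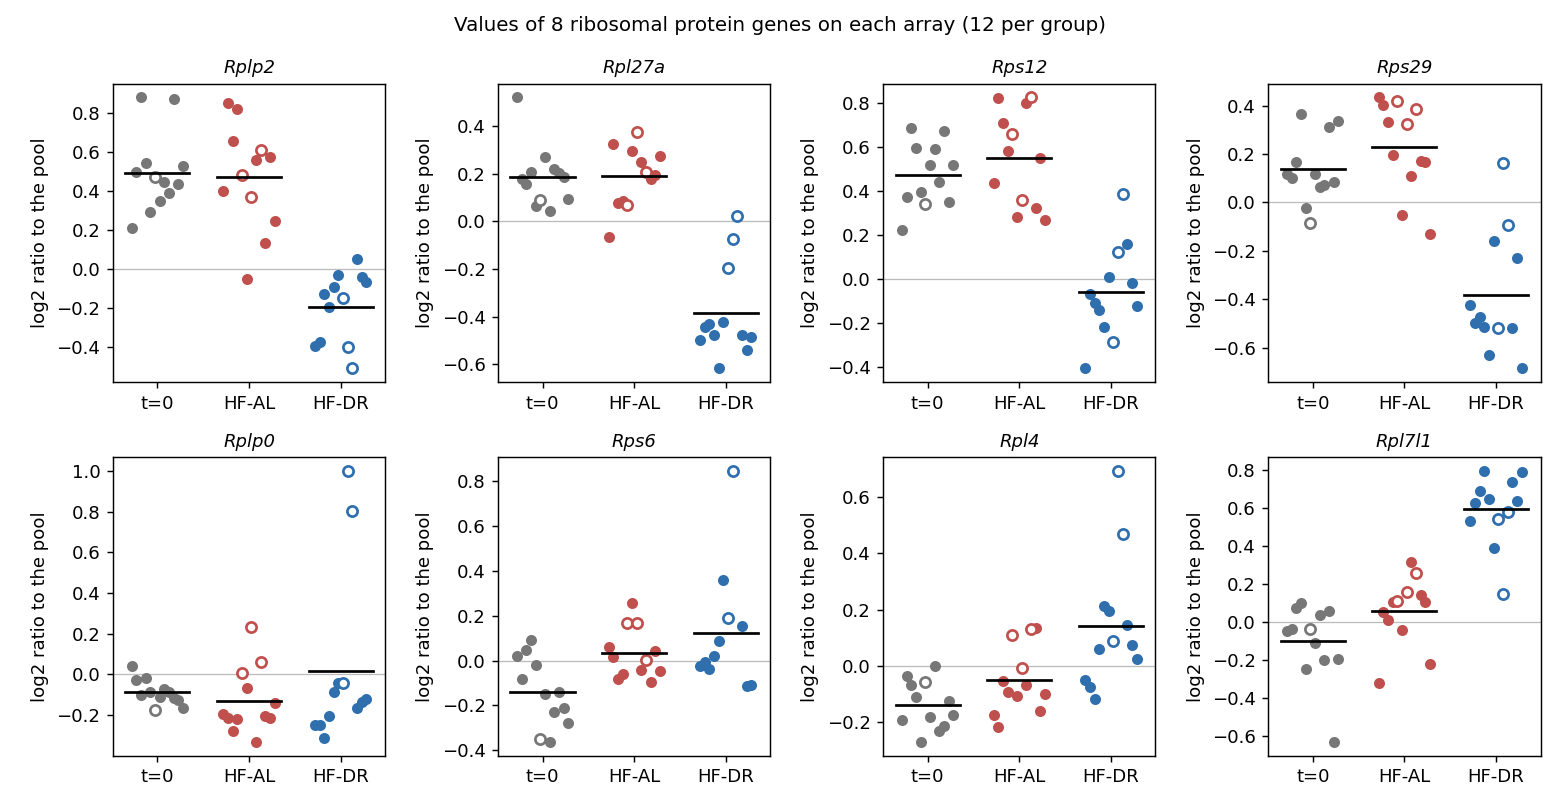
Log2 ratio to the pool of 8 ribosomal protein genes on each array, by group of 12; open circles are the 7 arrays with tract transcripts and black lines are group means. HF-DR arrays are low for Rplp2, Rpl27a, Rps12 and Rps29 and high for Rpl7l1, while Rplp0, Rps6 and Rpl4 overlap between groups and their highest HF-DR values are open circles.

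The paralogs are given beside their partners; the difference between partners was not itself tested. Rpl7l1 is a relative of Rpl7, and its yeast relative Rlp7 is an assembly factor of the large subunit and not a part of the mature ribosome. Its values (chr17:46237920-46237979 of mm8, reverse strand) were -0.63, -0.04 and 0.10 (lowest, median and highest) in t=0, -0.32, 0.10 and 0.32 in HF-AL, and 0.15, 0.63 and 0.80 in HF-DR. All HF-DR arrays exceeded all t=0 arrays, and all but array 8 exceeded all HF-AL arrays. Rpl7l1 rose by 0.54 in HF-DR against HF-AL (SE 0.08, adjusted p = 1.39e-07, 1.45-fold), by 0.63 without the tract arrays and by 0.52 after centring, and a second probe gave 0.92 (adjusted p = 6.9e-15 over all probes). Rpl7 had 0.00 after loess (adjusted p = 0.997), and 0.24 after centring (adjusted p = 0.00714). Its 2 dimmer probes gave 0.12 (adjusted p = 0.347 over all probes) and 0.31 (adjusted p = 0.00695).

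Rps27l, a paralog of Rps27 that p53 induces, rose by 0.24 after loess (SE 0.08, adjusted p = 0.0121) and by 0.44 after centring, whereas Rps27 fell by 0.57 after loess and by 0.28 after centring. The 2 highest HF-DR values of Rps27l were 1.07 and 0.68, on arrays 8 and 9, and without the tract arrays its difference was 0.10 (adjusted p = 0.0668). Rpl36al, a near copy of Rpl36a, rose by 0.30 (adjusted p = 0.0308) with arrays 8 and 9 at 1.31 and 1.41, and had 0.08 without the tract arrays (adjusted p = 0.11). Rpl36a had -0.01 on all arrays (adjusted p = 0.961), -0.13 without the tract arrays (adjusted p = 0.00682) and 0.21 after centring (adjusted p = 0.031). Its 2 other probes, nearly as bright, gave -0.29 (adjusted p = 0.0079 over all probes) and -0.38 (adjusted p = 0.00339). Rpl22l1, which can take the place of Rpl22, had -0.23 (adjusted p = 0.00099) and Rpl22 had -0.06 (adjusted p = 0.494). After centring Rpl22l1 had -0.01 and Rpl22 had 0.13, and neither passed. A second Rpl22 probe gave -0.44 (adjusted p = 1.03e-05 over all probes), so that the reading of Rpl22 depends on its probe.

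To set the members against each other with the family's own shift removed, the log ratios of all genes were centred on the members' median of each array. Of the 81 members, 16 were then higher and 20 lower in HF-DR than in HF-AL, where 54.4% of all genes passed. Since the members' median is set to 0 on each array, members on both sides of 0 follow from the centring itself. Under this centring 9 members were higher and 14 lower in all 5 starting points. The starting points were loess, median centring, the authors' deposited log2 values, loess without the tract arrays, and slide as a block. In single starting points 8973 (loess) to 11326 (without the tract arrays) of 16503 genes passed. How many of all genes passed in all 5 was not counted. The members higher in all 5 were Rpl4, Rpl10a, Rpl18, Rpl21, Rpl24, Rpsa and the paralogs Rpl7l1, Rpl36al and Rps27l. Relative to the family Rpl7l1 was higher by 0.44 to 0.82 and Rpl18 by 0.26 to 0.41. Those lower included Rpl13, Rpl27a, Rpl37a, Rpl41, Rplp1, Rplp2, Rps12, Rps18, Rps20, Rps21, Rps27, Rps28 and Rps29. Relative to the family the differences were -0.61 to -0.45 for Rpl27a, -0.54 to -0.34 for Rplp2 and -0.49 to -0.33 for Rps12.

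The loess differences followed probe brightness, which depends on the probe as well as on the mRNA. Over the 81 members the Spearman correlation of mean intensity with the difference HF-DR minus HF-AL was -0.74 after loess, -0.52 after centring and -0.52 in the authors' deposited log2 values. Of the 41 brighter members 25 were lower and 0 higher, and of the 40 dimmer ones 7 were lower and 6 higher. Among all genes 35.9% were lower and 28.8% higher. The 169 other genes as bright as the 41 had a median of 0.00 after loess, with 58 higher and 61 lower. Loess centres the log ratios at each brightness on each array, so that a median near 0 there is largely set by it. After centring on the array median these 169 genes had a median of 0.26 and the 41 members 0.01. The part of brightness in the differences of single members was not tested.

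Slides 13, 14 and 15 each held 1 array of every group, none of them a tract array except t=0 array 6 on slide 15. Within these slides the family's median difference HF-DR minus HF-AL was -0.28, -0.21 and -0.16 after loess, and -0.35, 0.31 and -0.07 after centring. Rpl27a gave -0.68, -0.64 and -0.71, Rpl37a -0.64, -0.71 and -0.58, and Rplp2 -0.53, -0.95 and -0.37. Rpl7l1 gave 0.39, 0.53 and 0.91. These members were chosen with the pooled result known. On each slide they had the direction of that result, which includes the same arrays. Rpl4 gave -0.18, 0.08 and -0.02 and did not. With slide as a fixed block the family's median was -0.27, with 1 member higher and 46 lower, where 52.8% of all genes passed. HF-AL arrays 1 to 3 and HF-DR arrays 7 to 12 were each alone on a slide, and so do not enter that difference. It therefore leaves out HF-DR tract arrays 7, 8 and 9 but keeps HF-AL tract arrays 5, 7 and 9.

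Without the 7 tract arrays 15 members had groups that did not overlap between HF-DR and HF-AL, 14 of them lower in HF-DR after loess, where 27.0% of all genes had no overlap. Those lower included Rplp1, Rpl13, Rpl23a, Rpl27a, Rpl34, Rpl35, Rpl37a, Rpl41, Rps12, Rps18, Rps21, Rps28 and Rps29, and Rpl7l1 was the 1 that was higher.

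Against t=0, which shares the HF-DR arrays with the comparison above, the members gave 9 higher and 22 lower in HF-DR after loess (31 of 81, 38.3%), where 61.8% of all genes passed, 28.8% higher and 33.0% lower. The median was -0.06 after loess and -0.17 without the tract arrays (6 higher, 49 lower, where 66.4% of all genes passed), but 0.09 after centring (19 higher, 8 lower, where 59.4% passed) and 0.17 in the authors' deposited log2 values (39 higher, 7 lower, where 61.3% passed). With the tract arrays left out and centring it was 0.06 (15 higher, 10 lower, where 62.5% passed), and with slide as a fixed block -0.16 (3 higher, 35 lower, where 56.5% passed). Rplp2 fell by 0.69 (SE 0.09, adjusted p = 1.76e-08), Rpl37a by 0.58, Rpl27a by 0.57, Rps12 by 0.53 and Rps29 by 0.52. Rpl27a, Rpl37a, Rplp2, Rps12, Rps20, Rps21 and Rps29 were called lower in all 19 settings. Rpl4 and Rpl7l1 were called higher in all 19. The share of all genes called in all 19 was not counted here either. Rpl7l1 rose by 0.70 (SE 0.08, adjusted p = 5.62e-10) and its second probe by 0.85. Rps27l rose by 0.34 (adjusted p = 0.000609), Rpl18 by 0.34 (adjusted p = 0.00424), Rpl4 by 0.28 (adjusted p = 0.000299) and Rps6 by 0.26 (adjusted p = 0.00402). Rplp2, Rpl27a and Rpl7l1 were the members whose groups did not overlap, where 16.6% of all genes had no overlap. Without the tract arrays 13 members had none, 12 of them lower, where 26.6% of all genes had none. Relative to the family's own median 16 members were higher and 20 lower, where 50.9% of all genes passed.

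Between HF-AL and t=0 no member passed after loess (limma, 10 of 81 at an unadjusted p under 0.05), where 0.697% of all genes did. The median difference HF-AL minus t=0 was 0.08 after loess, 0.01 without the tract arrays and 0.00 after centring. With log ratios scaled between arrays, or with only these 2 groups in the fit, 1 member was higher. The member with the largest difference was Rps27, at 0.32 (SE 0.09, adjusted p = 0.0784), with values of -0.08 to 0.50 in t=0 and 0.08 to 0.83 in HF-AL. Rps23 had 0.25 (adjusted p = 0.178) and Rpl21 had -0.17 (adjusted p = 0.394). Rplp2, Rpl27a and Rpl37a had -0.02, 0.00 and 0.00, with SE of 0.06 to 0.09.

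The members varied together between animals of a group, less so without the tract arrays. Within groups the mean pairwise correlation of members over 36 arrays was 0.54, against 0.26 for the mitochondrial ribosomal proteins and 0.01 for all genes, as a description over members that share arrays and brightness. Over the 29 arrays without tract RNA it was 0.11, against 0.14 for the mitochondrial ribosomal proteins. Rpl10 had the widest spread within groups, an SD of 0.39, and 0.14 without the tract arrays; it reached 1.47 on HF-DR array 8. Rps26 (0.36), Rps4x (0.35), Rpl12 (0.32) and Rpl3 (0.32) followed. Without those arrays Rps26 had 0.16, Rps4x 0.26, Rpl12 0.11 and Rpl3 0.19. Rpsa, Rpl24, Rps2 and Rpl22l1 were among those with the narrowest spread on all arrays, 0.13 to 0.14. Without the tract arrays Rplp0 and Rpl36a, each at 0.07, lay below Rpsa at 0.11.

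Several probes passed for 37 members. In HF-DR against HF-AL they pointed in opposite directions for 19, and for 3 of these, Rpl11, Rpl27a and Rps4x, both directions passed the test over all probes. For Rps4x the brightest probe gave -0.44 and a dim probe on an expressed sequence tag gave 0.32. In each of the 3 the probe with the positive difference was the dimmer one. The median range between the probes of a gene was 0.21. Whether such probes bind different transcripts was not tested.

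Genes for building ribosomes, for translation and for the mitochondrial ribosome are given beside the family; these lists, too, were chosen with results of these data known. Of 71 ribosome assembly factors, 53 were higher and 4 lower in HF-DR than in HF-AL, with a median of 0.30, where 28.8% of all genes were higher and 35.9% lower. The median stayed between 0.23 and 0.38 in all 19 settings. Bysl, needed for small subunit maturation, rose by 0.92 (SE 0.07, adjusted p = 2.16e-14), and Nob1, the nuclease that makes the 3′ end of 18S rRNA, by 0.71 (SE 0.06, adjusted p = 7.38e-13). Tsr2, a chaperone of Rps26 in yeast, fell by 0.43, and Tcof1, the treacle protein, by 0.40. Of 12 measured RNA polymerase I genes, 7 were higher and 3 lower; Polr1d rose by 0.70 and Polr1e by 0.46, while Taf1d fell by 0.69 and Ubtf by 0.30. The Taf1d call turned to 0.20 with the mean over probes of a gene in place of its brightest probe. The corresponding proteins of the mitochondrial ribosome, 78 measured, gave 67 higher and 4 lower with a median of 0.41, between 0.35 and 0.57 over the 19 settings.

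The same shares of all genes, 28.8% higher and 35.9% lower, stand beside the counts of the translation lists. Of 38 translation initiation genes 21 were higher and 5 lower (median 0.20). Eif1a rose by 1.13 and Eif4e2 by 0.81, whereas Eif4a2 fell by 0.49 and Eif4g3 by 0.45. Of 13 genes listed under elongation and termination 6 were higher and 0 lower (median 0.16). Without the tract arrays 6 were higher and 4 lower. Etf1, the release factor, had 0.68, and Eef1e1, grouped here by its symbol, had 0.63. The 17 other mRNAs known to carry a TOP motif had a median of -0.07 after loess (3 higher, 4 lower) and 0.12 after centring (6 higher, 2 lower). Among them Nap1l1 fell by 1.17 (SE 0.06, adjusted p = 2.97e-18) and Pabpc1, the poly(A)-binding protein, by 0.67 (SE 0.12, adjusted p = 8.17e-06), while Btf3 rose by 0.17 and Eif3e by 0.19. Fau and Rack1, ribosomal subunits with other names, passed in neither direction after loess. Of 31 regulators of ribosome production 10 were higher and 14 lower, near the shares of all genes. Larp4 rose by 1.19 and Max, the partner of Myc, by 0.37. Sesn2 and Sesn1, sestrins that restrain mTORC1, fell by 1.73 and 0.75. In HF-AL against t=0 no gene of these lists passed after loess.

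**Figure D4:**
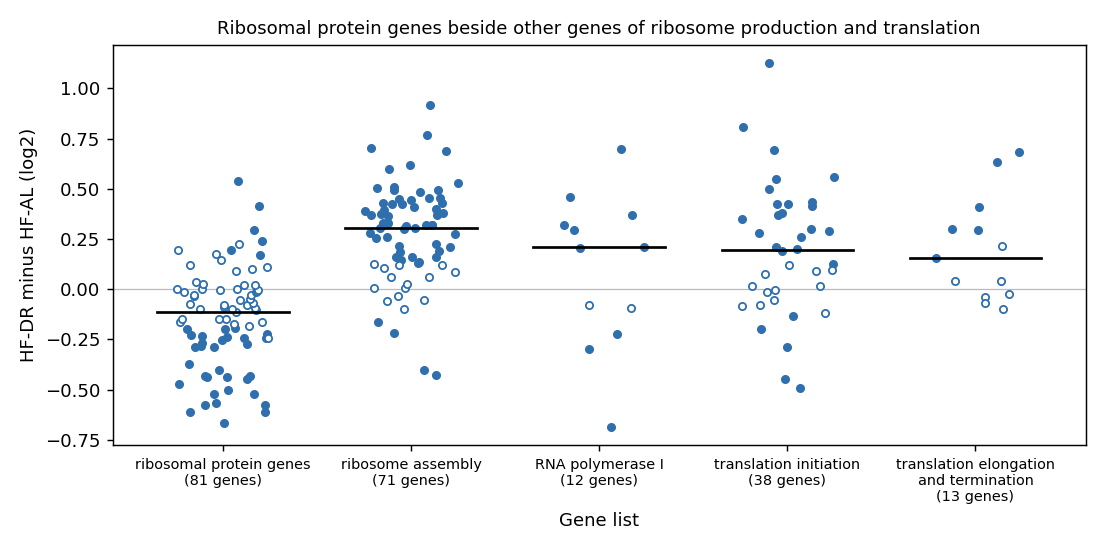
Difference HF-DR minus HF-AL (log2, after loess) of each gene of 5 lists, filled where adjusted p was under 0.05, with black lines at the medians. The medians of the 4 lists other than the ribosomal proteins were above 0 in all 19 settings. That of the ribosomal proteins, -0.11 here, was 0.06 after median centring and 0.14 in the authors' deposited log2 values. Of the lists not drawn, the 17 other TOP mRNAs (-0.07) and the 3 subunits with other names (-0.09) turned to 0.12 and 0.18 after centring. The 31 regulators had -0.11 and the 78 mitochondrial ribosomal proteins 0.41, with the same sign in all 19 settings.

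Markers of several cell types differed between the groups as well, and in whole tissue fewer cells of a type and less RNA per cell cannot be told apart. In HF-DR against HF-AL 8 of 10 preadipocyte and fibroblast markers, 8 of 10 macrophage markers and 6 of 10 adipocyte markers were lower and none higher, and 2 of 4 neutrophil markers measured were higher (Ly6g and Elane were not above background), where 28.8% of all genes were higher and 35.9% lower. Of the red blood cell markers 4 of 4 measured were higher (median 0.67; 2 without the tract arrays). Lower markers numbered 4 of 6 for mast cells, 4 of 6 for mesothelium and 4 of 7 for endothelium, with 1, 0 and 1 higher. The mean of the preadipocyte and fibroblast list was 0.06 to 0.32 in HF-AL and -1.18 to -0.59 in HF-DR, and that of the macrophage list -0.17 to 0.30 and -1.27 to -0.25. The adipocyte list had -0.13 to 0.45 and -1.18 to 0.04, and without the tract arrays 0.10 to 0.45 and -0.06 to 0.04. Without those arrays 5 of its markers were lower and 2 higher. On all arrays 4 were lower and 1 higher after centring, and 3 lower and 3 higher with the slide block. The part of these markers in the differences of the ribosomal protein genes was not tested.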

How the data were processed

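Each of 36 arrays (45018 spots, 41174 probes that were not controls) held 1 mouse in Cy5 against a Cy3 pool, 12 arrays per group, grouped by the sample titles. Per the file headers, the deposited spot intensities are scanner output read with Agilent Feature Extraction 9.5.3.1 (also named in the submitters' processing notes), with coordinates on mm8. A table of log2 values was also deposited by the authors for 22510 of the probes; the sources used here do not give how it was scaled. Its columns have medians of 9.26 to 9.29, and on 36 arrays they followed Cy5 (Spearman 0.978 to 0.997) more closely than Cy3; it served as an alternative.

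Net mean signals were corrected with normexp (offset 50; 84 spots with a net signal under -50 left out) and loess (4 iterations, control spots at weight 0), with non-uniform and population outliers left out and no scaling between arrays. Probes well above background in Cy5 on at least 9 arrays of a group were kept (24706), and the brightest probe stood for a gene (16503). Current symbols came from RefSeq, by accession for 24375 probes, symbol for 6301 and synonym for 2426; 8072 kept the file's name. The tests were two-sided contrasts of 3 group means over 36 arrays with limma 3.58.1 in R 4.3.3, Benjamini-Hochberg adjusted over all genes, with 0.05 as the threshold. The number of arrays limits the precision. Tested on simulated data with 200 of 16503 genes changed in HF-DR against HF-AL, the fit recovered 90% at a log2 change of 0.5 and 99% at 1, with 8 false calls. In the data 64.7% of genes passed and the members' median absolute difference was 0.18, so that these rates do not describe them.

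The alternatives were normexp on all spots, the authors' processed signals, their log2 table, Cy5 alone after quantile normalization, scaling between arrays, median centring, no filter, the mean over probes, no saturated spots, slide or replicate number as a block, only the groups compared, and leaving out tract arrays or the array of lowest signal. Replicate numbers did not pair the animals: over 36 pairs of arrays with the same number, deviations from the group means correlated by 0.03 on average, and 11 pairs exceeded 0.1.

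Members and lists were chosen with earlier results of these data known. Genes were named by rule: in each comparison the 5 largest rises and falls that passed, paralogs with their partners, a set of well-known members, members with conflicting probes, the 5 widest and 5 narrowest spreads, and up to 2 genes up and 2 down per list. Rps20, Rps21, Rps23, Rps28 and the members counted as holding in all settings or without overlap were added after their values were seen. Results of some genes are not reported here.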

Additional observations from a re-analysis of the deposited data

How the results depend on the processing

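The calls named as holding in all settings did so over 19 settings, of which leaving out the 5 arrays highest in tract transcripts, and leaving out 7 arrays together with a slide block or with centring, were chosen after seeing the data, as was centring on the family's median. In HF-DR against HF-AL the members called higher and lower numbered 37 and 7 in the authors' log2 table (median 0.14, 64.2% of all genes passed). They numbered 26 and 9 with median centring (0.062, 61.8%), and 23 and 6 with centring and without 7 arrays (0.077, 62.1%). With slide as a fixed block they numbered 1 and 46 (52.8%), and with that block and without 7 arrays 1 and 40 (50.1%). Leaving out 7 arrays gave 4 and 50 (66.8%), and leaving out 5 gave 6 and 49 (67.9%). In HF-DR against t=0 they numbered 39 and 7 in the authors' table (median 0.17, 61.3% of all genes passed). Centring gave 19 and 8 (59.4%), and centring without 7 arrays 15 and 10 (62.5%). The slide block gave 3 and 35 (56.5%), and without 7 arrays as well 2 and 46 (56.5%). Without 7 arrays there were 6 and 49 (66.4%), and without 5 there were 6 and 46 (68%). In HF-AL against t=0 there was 1 higher with scaling between arrays and 1 with only the 2 groups compared.

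Single genes turned sign where at least 1 of the 2 values passed, in HF-DR against HF-AL, in the authors' table (Rpl11 0.11, Rpl12 0.34, Rpl13a 0.19, Rpl22 0.21, Rpl22l1 0.083, Rpl36a 0.27, Rps19 0.27, Rps2 0.091 and Rps27a 0.25), with centring (Rpl11 0.021, Rpl12 0.25, Rpl36a 0.21, Rps19 0.18 and Rps2 0.017), with centring and without 7 arrays (Rpl11 0.10, Rpl12 0.18, Rpl13a 0.18, Rpl22 0.19, Rpl36a 0.17, Rps19 0.23 and Rps2 0.060), with the slide block (Rpl10 -0.28 and Rpl36al -0.027), with the mean over probes (Rps19 0.088 and Taf1d 0.20) and without 7 or 5 arrays (Rpl10 -0.16 and -0.15). In HF-DR against t=0 they turned in the authors' table (Rpl11 0.040, Rpl22l1 0.088, Rpl7 0.22, Rps2 0.081 and Rps27 0.032), with Cy5 alone (Rps2 0.042), with centring and without 7 arrays (Rpl11 0.038, Rpl22l1 0.012 and Rps2 0.057), with the slide block and without 7 arrays (Rpl13a -0.14 and Rpl36a -0.15), without 7 arrays (Rpl10 -0.16, Rpl12 -0.14, Rpl36a -0.12 and Rplp0 -0.094), without 5 (Rpl10 -0.15, Rpl12 -0.13 and Rpl36a -0.11) and with the mean over probes (Taf1d 0.25). These lists cover genes described singly above and are not complete for the 81 members. Rps16, for example, passed in both directions in HF-DR against HF-AL. It had -0.19 after loess and 0.15 in the authors' table (limma, adjusted p = 0.0275 and 0.0335). The cause was not tested. With the replicate block, which no pairing of the animals backs, the members called higher and lower were 6 and 32 in HF-DR against HF-AL, 0 and 0 in HF-AL against t=0, and 8 and 23 in HF-DR against t=0. Of the other values for single genes, 2674 kept their direction and side of the threshold, 193 that passed in neither setting turned sign (Rpl5, Rplp0 and Rpl3 among them), 99 lost the call and 63 gained it. The single dye orientation, the brightness of the members' probes and probes shared with processed copies limit what these arrays show.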
